A study of Mus musculus with 36 samples.

Results

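The genes described here encode the NF-kB transcription factor subunits (Nfkb1, Nfkb2, Rel, Rela and Relb) or are feedback genes that NF-kB itself switches on. The feedback genes listed are Nfkbia, Nfkbie, Nfkbiz, Tnfaip3 and Bcl3. All of these genes were chosen by symbol, and 9 of the 10 symbols have a row among the 12762 genes of the expression table. Bcl3 is not analysed here. The RNA of B3 cells, a mouse pre-B cell line, was sequenced with stranded mRNA-seq in 36 libraries. The first line was transduced with an MSCV retrovirus that makes HA-tagged Ikaros fused to the ERt2 hormone-binding domain, followed by IRES-GFP, and is here called the Ikaros line. The other line carries ERt2-IRES-GFP without Ikaros and is called the control line. Both lines were pools sorted for GFP and kept their own Ikzf1 gene. Each line was collected at 0, 2, 6, 12, 18 and 24 h of treatment with 4-OHT (4-hydroxy-tamoxifen, at 0.5 uM), which moves the fusion protein into the nucleus, with 3 libraries at each time. The labels list 4-OHT for every library, whereas the study's methods say that the 0 h cultures had no drug and were grown separately. The 3 libraries of a group come from separate cultures, of batches 1, 2 and 4 at 0 h and of batches 1, 3 and 4 at later times.

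NF-kB factors are dimers of subunits that share a DNA-binding domain. In resting cells they are held in the cytoplasm by inhibitors of the IkB family, and kinases of the IKK complex release them when a receptor is engaged. NF-kB then raises transcription of several of its own subunits and inhibitors, so that levels of these mRNAs are often read as a record of pathway activity. In B cell precursors NF-kB acts downstream of the pre-B cell receptor and of receptors for microbial products and TNF family ligands. Ikaros is a zinc finger DNA-binding protein needed for lymphoid development.

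Levels are given on the deposited log2 scale, which the authors corrected for GC content, gene length and batch and shifted so that the lowest value of the table was 1. A step of 1 is a 2-fold change. Values are relative to the rest of each library and no read counts were used, so depth per library is unknown. In these bulk samples fewer cells of a type and less RNA per cell cannot be told apart. Library medians ran from 11.70 to 11.73. Ikzf1 ran from 13.95 to 14.85 in the 18 control libraries and from 19.63 to 20.93 in the 18 Ikaros libraries, so the lines were apart in every library, 0 h included. All 10 B lineage markers looked for were in the table. Cd79a stood at the 99.5th percentile of gene means and Pax5 at the 98.1st. Of markers of other cells, 2 of 8 for T and NK cells, 2 of 7 for myeloid cells and 3 of 6 for erythroid cells and megakaryocytes had a row, and the defining genes Cd3e and Csf1r had none.

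Promoter sequence is shown for analysed genes that hold a match to the NF-kB consensus, since feedback on these genes is known to run through such sites. RefSeq windows of 300 bases, from 250 before to 50 after an annotated start (GRCm38.p6), were given for Nfkb2, Rel, Rela, Nfkbia, Nfkbie, Tnfaip3 and Bcl3, and Nfkb1, Relb and Nfkbiz were not matched. The 10-letter NF-kB consensus was searched on both strands. The stretches read 5′ to 3′ along the gene, the capitals mark the match, and overlapping matches on both strands are shown as 1 run. Coordinates span the whole printed stretch, and distances to the start are those of the capitals alone.
Nfkb2, chr19:46304689-46304717, plus strand, 39 to 29 bases before the start: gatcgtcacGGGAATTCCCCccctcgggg
Rel, chr11:23771042-23771070, minus strand, 92 to 82 bases before the start: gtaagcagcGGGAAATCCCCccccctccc
Nfkbia, chr12:55492658-55492685, minus strand, 29 to 20 bases before the start: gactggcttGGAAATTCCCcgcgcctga
Nfkbie, chr17:45555585-45555612, plus strand, 106 to 97 bases before the start: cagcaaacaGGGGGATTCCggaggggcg
Tnfaip3, chr10:19015517-19015544, minus strand, 125 to 116 bases before the start: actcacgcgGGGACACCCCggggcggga
Tnfaip3, chr10:19015411-19015431, minus strand, 12 to 3 bases before the start: atttccatcGGAAATCCCCct

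Further matches in the windows of Nfkb2, and 1 in that of Bcl3, are not shown. The consensus was thus present in windows of 5 analysed genes, Nfkb2, Rel, Nfkbia, Nfkbie and Tnfaip3, and the window of Rela held no match. Of all 32851 windows 4.51% held a match. That share counts windows and not genes, and Nfkb2 and Tnfaip3 had several windows each. The genes were also listed for their known link to NF-kB, so the 2 figures were not tested against each other. In the GENCODE annotation the printed stretches of Rel, Nfkbia and Nfkbie lie outside the gene, just upstream of it. The stretch of Nfkb2 lies in an exon of a longer transcript, and both stretches of Tnfaip3 lie in an intron of one. The letters TGGGAA, which contain the core bound by Ikaros, were found on either strand in the windows of Rel and Tnfaip3 and in 25.6% of all windows. No window of these genes held TGGGAA overlapping the NF-kB consensus, which 0.387% of all windows did. A match to the consensus that itself contains GGGAA was held by Nfkb2, Rel, Nfkbia and Bcl3, and by 1.44% of all windows. These are matches of letters and not measured binding sites.

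From 2 h to 12 h of 4-OHT 3 to 5 of the 9 genes differed from control at each time. Over those times 9.18% to 23.0% of all genes were called higher and 9.88% to 22.8% lower. At 24 h every one of the 9 was higher in the Ikaros line, against 31.0% of all genes. The change of the difference from 0 h to 24 h was called for 6 of the 9, against 48.4% of all genes. Nfkb2 and Tnfaip3 were lower in the Ikaros line from 2 h to 12 h and higher at 24 h. Rel and Rela were higher from 6 h on, and the IkB family genes Nfkbia, Nfkbie and Nfkbiz were higher at 18 h and 24 h. In the control line none of the 9 passed the test over the same course from 0 h to 2 h or from 2 h to 24 h. Of all genes in that line 0.0470% and 0.454% passed.

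**Figure D1:**
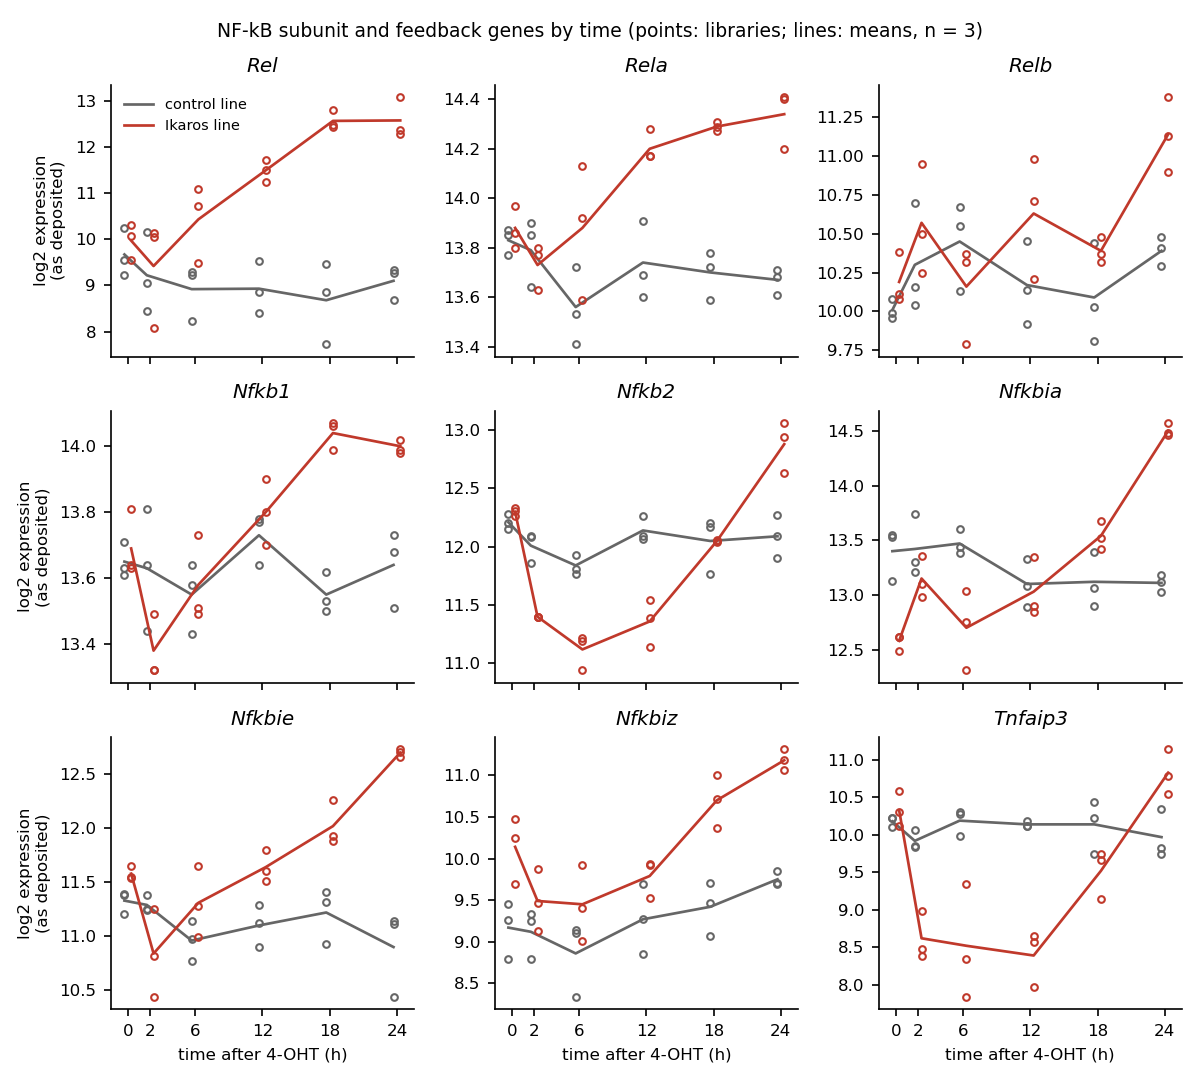
Log2 expression of the 9 genes (vertical axis, as deposited) against hours of 4-OHT (horizontal axis). Open points are libraries, lines join the means of 3 libraries, grey is the control line and red the Ikaros line. Nfkb2 and Tnfaip3 dip in the Ikaros line at 2 h to 12 h and end above the control at 24 h, where Rel reaches 12.27 to 13.08 against 8.69 to 9.34 in the control.

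Differences between the lines were tested with limma in 1 model of all 36 libraries, with p-values adjusted over all 12762 genes and calls at adjusted p under 0.05. At 0 h 1 of the 9 genes was called higher (4.61% of all genes were) and 1 lower (3.72%). At 2 h 3 were called, each of them lower (9.88% of all genes were lower and 9.18% higher). At 6 h 2 were higher (18.1%) and 3 lower (19.2%), and at 12 h 3 were higher (23.0%) and 2 lower (22.8%). At 18 h 6 were higher (29.0%) and 1 lower (29.2%). At 24 h all 9 were higher, against 31.0% of all genes called higher and 31.9% lower. The 3 Ikaros libraries then did not overlap the 3 control libraries for any of the 9. The share of all genes without such overlap was not counted, so this separation is not shown to be particular to them. The median difference of the 9 genes was 0.15, -0.25, 0.02, 0.46, 0.49 and 0.86 at the 6 times in order, while that of all genes stayed between -0.03 and 0. With replicate 1 or replicate 2 left out, 0 genes were called at 0 h and 3 at 6 h, without replicate 1 only 1 was called at 2 h, and without replicate 2 only 3 at 12 h. Fitting the compared groups alone gave 1 call at 0 h and 2 at 6 h.

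**Figure D2:**
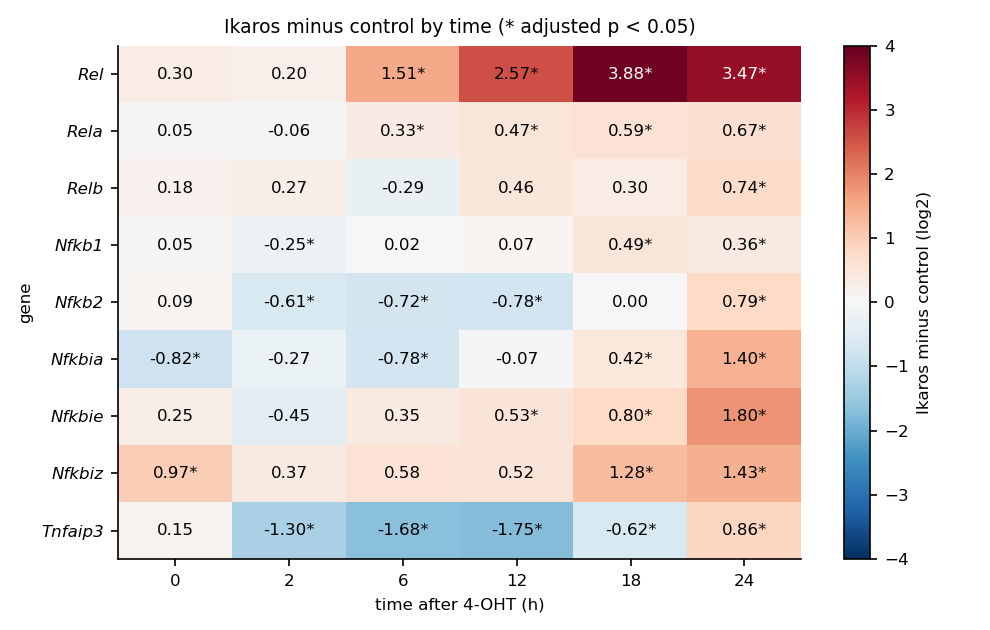
Difference in log2 expression, Ikaros minus control, for the 9 genes (rows) at each time in hours (columns), on a colour scale from blue (lower in the Ikaros line) to red (higher). An asterisk marks a limma adjusted p under 0.05, and the 24 h column holds 9 asterisks with values from 0.36 for Nfkb1 to 3.47 for Rel.

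Of the subunits with a transactivation domain, Rel (chr11:23736847-23770970, minus strand), which encodes c-Rel, the subunit best known from activated and mature B cells, had the largest log2 difference of the 9 genes at 12 h, 18 h and 24 h. In the control line Rel ran from 9.22 to 10.25 at 0 h and read 9.27, 9.34 and 8.69 at 24 h. In the Ikaros line it read 10.30, 9.55 and 10.06 at 0 h, 10.13, 10.05 and 8.07 at 2 h, and 11.09, 10.71 and 9.49 at 6 h. The third library stands low at both 2 h and 6 h. From 12 h the Ikaros libraries drew together, with 11.24, 11.72 and 11.50 at 12 h, 12.42, 12.48 and 12.79 at 18 h, and 13.08, 12.27 and 12.36 at 24 h. The lines overlapped at 0 h and 2 h and did not overlap from 6 h on. Rel was thus 1.51 ± 0.51 (SE, n = 3 libraries a group) higher on the log2 scale at 6 h, with a limma adjusted p of 0.0223. The call was lost without replicate 1 (adjusted p = 0.188) and without replicate 2 (0.133), with log2 differences of 1.33 and 1.56. At 12 h Rel was 2.57 higher (1.78e-04), at 18 h 3.88 (3.36e-07) and at 24 h 3.47 (1.50e-06), the last an 11.1-fold difference. Within the 3 culture batches the 24 h difference was 2.93 to 3.82.

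Rela (chr19:5637483-5648130, plus strand) encodes p65, the main activating subunit of the classical pathway. It was the most abundant of the 9 genes over all libraries, at the 85.0th percentile of gene means. Control libraries ran from 13.41 to 13.91 over the whole course. In the Ikaros line Rela read 13.80, 13.77 and 13.63 at 2 h, 14.17, 14.17 and 14.28 at 12 h, and 14.40, 14.20 and 14.41 at 24 h. Every Ikaros library from 12 h on stood above every control library of any time. The difference at 6 h was 0.33 ± 0.11 (limma adjusted p = 0.0199), with overlapping libraries, and was no longer called without replicate 1 (0.133) or replicate 2 (0.242). The 12 h difference was 0.47 (8.74e-04, and 0.0555 without replicate 2). Those of 18 h and 24 h were 0.59 (4.23e-05) and 0.67 (6.67e-06). The last is 1.59-fold at 24 h, small beside that of Rel on the log2 scale, and was seen in each of the 3 batches (0.52 to 0.80).

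Relb (chr7:19606217-19629438, minus strand) encodes the activating subunit of the alternative pathway, which pairs with the product of Nfkb2. Relb read 10.41, 10.29 and 10.48 in the control line and 11.38, 11.13 and 10.90 in the Ikaros line at 24 h. At the earlier times the lines overlapped, with Ikaros libraries from 9.79 to 10.98 and control libraries from 9.81 to 10.70. The difference at 24 h was 0.74 ± 0.22 (limma adjusted p = 0.00403). It was no longer called without replicate 1 (0.63, adjusted p = 0.0906) or without replicate 2 (0.69, 0.0544). Of the 9 genes Relb is the only one called at 24 h alone.

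The remaining subunit genes encode precursors that are cut to the DNA-binding partners p50 and p52. Nfkb1 (chr3:135584655-135691547, minus strand), the source of p50, moved little. Control libraries ran from 13.43 to 13.81 over the course. In the Ikaros line it read 13.32, 13.49 and 13.32 at 2 h, 14.06, 13.99 and 14.07 at 18 h, and 13.99, 13.98 and 14.02 at 24 h. The Ikaros libraries overlapped the control at 2 h and stood above every control library at 18 h and 24 h. At 2 h the difference was -0.25 ± 0.09 (limma adjusted p = 0.0489), and it lost its call without replicate 1 (-0.14, 0.624), without replicate 2 (-0.31, 0.242) and after quantile normalization (-0.26, 0.0516). At 18 h it was 0.49 (4.15e-05) and at 24 h 0.36 (0.00130).

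Nfkb2 (chr19:46304320-46312385, plus strand), the source of p52, fell and then rose in the Ikaros line. It read 12.26, 12.31 and 12.33 at 0 h, 11.40 in each of the 3 libraries at 2 h, and 11.22, 11.19 and 10.94 at 6 h. It then read 11.39, 11.54 and 11.14 at 12 h, 12.05, 12.06 and 12.04 at 18 h, and 13.06, 12.63 and 12.94 at 24 h. Control libraries stayed between 11.77 and 12.28. The Ikaros libraries lay below every control library at 2 h, 6 h and 12 h, among them at 18 h, and above them at 24 h. In time order these differences were -0.61 ± 0.12, -0.72 and -0.78 for 2, 6 and 12 h, with limma adjusted p-values of 5.42e-04, 3.70e-05 and 6.23e-06. The 18 h difference was 0.00 (0.990) and the 24 h difference 0.79 (2.50e-06). The 4 called differences of Nfkb2 were called in all 8 alternative fits.

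Nfkbia and Nfkbie encode IkB proteins that hold NF-kB in the cytoplasm. Nfkbia (chr12:55489410-55492647, minus strand) encodes IkB alpha, the inhibitor that NF-kB resynthesises fastest. It was already apart at 0 h, with 13.55, 13.53 and 13.13 in the control line and 12.62, 12.62 and 12.49 in the Ikaros line. That difference was -0.82 ± 0.17 (limma adjusted p = 0.00200), and without replicate 1 or replicate 2 it kept its size (-0.77 and -0.78) but not its call (0.185 and 0.106). The 2 h Ikaros libraries read 12.98, 13.10 and 13.36, and the control libraries 13.30, 13.21 and 13.74, so the lines overlapped. At 6 h the Ikaros libraries read 12.75, 13.04 and 12.31 and lay below the control libraries (13.38 to 13.60), a difference of -0.78 (9.04e-04, and 0.0577 in a fit of those groups alone). At 18 h the Ikaros libraries read 13.42, 13.52 and 13.68, above the control range of 12.90 to 13.39. The difference of 0.42 (0.0402) was no longer called without replicate 1 (0.45, 0.183) or replicate 2 (0.32, 0.273). At 24 h the Ikaros libraries read 14.48, 14.57 and 14.46 and the control libraries 13.12, 13.03 and 13.18. That is a difference of 1.40 (8.54e-08), or 2.64-fold, with 1.29 to 1.54 in the 3 batches.

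Nfkbie (chr17:45555703-45563169, plus strand) encodes IkB epsilon, a slower inhibitor that acts mainly on dimers with c-Rel and p65. In the Ikaros line it read 11.54, 11.65 and 11.55 at 0 h, 11.25, 10.82 and 10.44 at 2 h, and 12.71, 12.66 and 12.73 at 24 h. Control libraries ran from 10.44 to 11.41 over the course. The lowest Ikaros value at 2 h equals the lowest control value, at 24 h, and every Ikaros library from 12 h on lay above every control library of any time. The difference from control was -0.45 ± 0.19 at 2 h (limma adjusted p = 0.0937) and 0.53 at 12 h (0.0210, and 0.0608 and 0.257 without replicate 1 or replicate 2). It was 0.80 at 18 h (6.00e-04) and 1.80 at 24 h (3.45e-09), a 3.49-fold difference.

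Nfkbiz (chr16:55811375-55838899, minus strand) encodes IkB zeta, a nuclear IkB protein that shapes which NF-kB targets respond. It was higher in the Ikaros line at 0 h, with 10.25, 10.48 and 9.69 against 9.26, 9.45 and 8.79. This difference of 0.97 ± 0.27 (limma adjusted p = 0.0211) was 0.90 to 1.03 in the 3 batches, and was not called without replicate 1 (0.0919), without replicate 2 (0.352) or in a fit of those groups alone (0.0709). At 2 h the Ikaros libraries read 9.13, 9.47 and 9.87 and overlapped the control (8.79 to 9.33). At 18 h they read 11.00, 10.72 and 10.37 and at 24 h 11.06, 11.31 and 11.18, against 9.71, 9.69 and 9.85 in the control at 24 h. The difference was 1.28 at 18 h (2.13e-04) and 1.43 at 24 h (4.55e-05). Since the lines differed before induction, the change of the difference from 0 h to 24 h was smaller, at 0.46 ± 0.38 (0.337).

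Tnfaip3 (chr10:19000910-19015657, minus strand) encodes A20, a ubiquitin-editing enzyme that shuts off signalling upstream of IKK. It moved most of the 9 genes at 2 h. In the control line it ran from 9.74 to 10.44 over the course. In the Ikaros line it read 10.58, 10.31 and 10.12 at 0 h, 8.39, 8.98 and 8.48 at 2 h, 8.35, 7.84 and 9.35 at 6 h, and 8.57, 7.97 and 8.65 at 12 h. It then read 9.67, 9.15 and 9.75 at 18 h and 10.78, 11.14 and 10.55 at 24 h. The Ikaros libraries lay below every control library of any time from 2 h to 12 h, reached the low end of the control range at 18 h, and lay above it at 24 h.

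Against control, Tnfaip3 differed by -1.30 ± 0.27, -1.68 and -1.75 at 2, 6 and 12 h, with limma adjusted p-values of 8.64e-04, 1.92e-05 and 5.66e-06. Without replicate 1 the 2 h difference was -1.12 (0.108), while each of the 3 batches was lower at 2 h (-1.66 to -0.87). At 18 h the difference was -0.62 (0.0497), and this call rests on the fit: a replicate block for culture batch moved its adjusted p to 0.0577, and leaving out replicate 1, 2 or 3 gave -0.88, -0.39 and -0.58 with adjusted p-values of 0.0776, 0.268 and 0.0914. At 24 h Tnfaip3 was 0.86 higher (0.00705), or 1.81-fold, and 0.77 without replicate 1 (0.117).

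The early and the late movements that were called were in the Ikaros line. From 0 h to 2 h 5 of the 9 genes were called in the Ikaros line, against 19.2% of all genes. Tnfaip3 fell by 1.72 (limma adjusted p = 4.88e-05), Nfkb2 by 0.90 (5.39e-06), Nfkbie by 0.74 (0.00656) and Nfkb1 by 0.32 (0.0160), whereas Nfkbia rose by 0.57 (0.0224). Of these, 2 were called in a fit of those groups alone, 3 without replicate 1 and 2 without replicate 2. From 2 h to 24 h all 9 genes rose in the Ikaros line, where 60.6% of all genes were called in either direction. The share of all genes called upward was not counted. The rises ran from 0.57 for Relb to 3.15 for Rel, with 2.21 for Tnfaip3, 1.86 for Nfkbie, 1.69 for Nfkbiz, 1.48 for Nfkb2 and 1.36 for Nfkbia. The rise of Relb (0.0243) was not called without replicate 1 (0.29, 0.440) or replicate 2 (0.54, 0.131). In the control line limma called 0 of the 9 genes from 0 h to 2 h (0.0470% of all genes) and 0 from 2 h to 24 h (0.454%). The unadjusted p was under 0.05 for 0 and 2 genes, and each alternative fit also called 0. Control libraries of 2 h and 24 h did not overlap for Nfkbiz (0.63, limma adjusted p = 0.340), Nfkbie (-0.39, 0.399) and Nfkbia (-0.31, 0.501). Those of 0 h and 2 h did not overlap for Nfkb2 (-0.20, 0.680) and Tnfaip3 (-0.26, 0.774). How many of all genes stand apart in this way was not counted, so no movement in the control line is read from these.

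The change of the difference between the lines was tested as an interaction, so that a difference present before induction is taken off. The shares of all genes given beside it count calls in either direction, and upward calls alone were not counted. From 0 h to 2 h 2 of the 9 genes were called (3.10% of all genes), Tnfaip3 and Nfkb2, both downward. The same genes were called at 6 h (2 of 9, 15.9%), and 5 of 9 at 12 h (29.7%), with Rel, Rela and Nfkbia upward. At 18 h 4 of 9 were called (43.0%) and at 24 h 6 of 9 (48.4%), each upward. Not called at 24 h were Tnfaip3 (0.71, limma adjusted p = 0.128), Relb (0.57, 0.130) and Nfkbiz (0.46, 0.337). Between 2 h and 24 h, a comparison without the separately grown 0 h cultures, 8 of 9 were called (47.3%), each upward, and Relb was not (0.48 ± 0.31, limma adjusted p = 0.204). These changes share the libraries of the 0 h or the 2 h groups and are not independent of each other. Leaving out replicate 1 made these counts 0, 1 and 3 for 2, 6 and 12 h, and leaving out replicate 2 made them 0, 1 and 2, and 2 for 18 h.

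On the length-corrected scale the order of levels in the Ikaros line at 24 h was Nfkbia (14.50 ± 0.06 SD, n = 3), Rela (14.34 ± 0.12), Nfkb1 (14.00 ± 0.02), Nfkb2 (12.88 ± 0.22), Nfkbie (12.70 ± 0.03), Rel (12.57 ± 0.45), Nfkbiz (11.18 ± 0.13), Relb (11.14 ± 0.24) and Tnfaip3 (10.83 ± 0.30). Nfkb2, Nfkbie and Rel overlapped as neighbours in this order, and so did Nfkbiz, Relb and Tnfaip3. In the control line at the same time Rel was the lowest of the 9 at 9.10 ± 0.36, and Rela (13.67 ± 0.05) and Nfkb1 (13.64 ± 0.11) were the highest and overlapped. At 0 h Nfkbia lay between Nfkb1 and Nfkb2 in both lines, and at 24 h in the Ikaros line it was the highest.

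**Figure D3:**
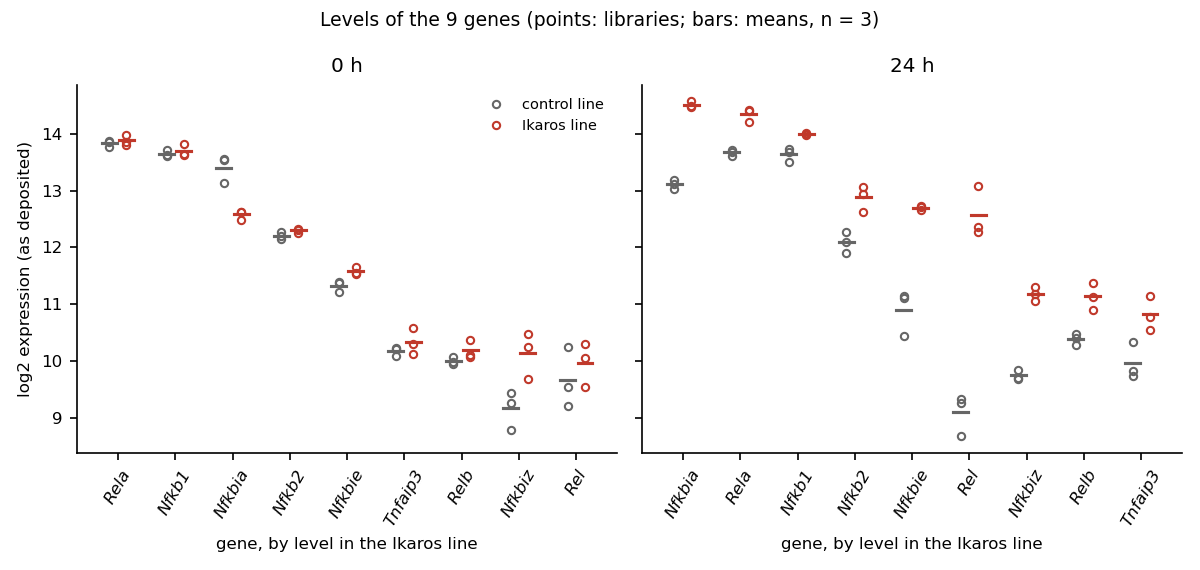
Log2 expression (vertical axis, as deposited) of the 9 genes at 0 h and 24 h, ordered by their level in the Ikaros line. Points are libraries and short bars the means of 3, grey for control and red for Ikaros. By its mean Rel is last at 0 h (9.97), where its libraries overlap those of Nfkbiz, Relb and Tnfaip3, and sixth at 24 h (12.57).

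Some of the 9 genes followed each other over the 12 group means, which share the same libraries. Rel and Rela were most alike, with a Pearson r of 0.972, followed by Nfkb2 and Tnfaip3 with 0.925 and Rela and Nfkbie with 0.906. Rel and Tnfaip3 had an r of -0.13. Among genes outside the list with a mean at or above the median, Rel was most like Smarcd1 (0.991), Cyfip2 (0.991) and Smarcc2 (0.99). Nfkb2 was most like Jak1 (0.966) and Myd88 (0.953), and Tnfaip3 was most like Sfxn3 (0.954), with Dok1 (0.925) and Jak1 (0.924) next. Rela was most like Tspyl1 (0.984), Nfkb1 like Wasf2 (0.963), Nfkbie like Sugp1 (0.962), Nfkbiz like Zfp36l1 (0.962) and Nfkbia like Acads (0.92). Relb had the weakest nearest neighbour, Cdkn2a at 0.885. These are descriptions over 12 means picked from a large table.

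In the rest of the pathway genes were called in both directions. The counts below stand beside 9.18% of all genes called higher and 9.88% lower at 2 h, and 31.0% higher and 31.9% lower at 24 h. At 24 h the share of receptors called in each direction was near these. Of the receptors that feed NF-kB, 9 of 16 had a row. At 2 h 1 of the 9 was called, Tnfrsf13b, the receptor TACI, at -0.64 (limma adjusted p = 0.0134, and 0.274 and 0.133 without replicate 1 or replicate 2). At 24 h 3 were higher and 3 lower, with a median difference of 0.15. Tlr6 and Tlr9, receptors for microbial lipopeptides and DNA, were 3.48 and 2.96 higher, and Cd180, a relative of the Toll-like receptors on B cells, was 1.57 higher. Cd180 was already 1.23 higher at 0 h (5.15e-05), and its difference changed by 0.34 from 0 h to 24 h (limma adjusted p = 0.311). Tnfrsf1b, a TNF receptor, was at -2.40, and Tnfrsf13c, the receptor for BAFF, was at -1.23.

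Of the adaptors and kinases between receptor and IKK, 28 of 30 had a row. At 2 h 2 were higher and 3 lower, with a median of 0.04. Prkcb, the protein kinase C of B cell receptor signalling, was at -5.03, but it stood apart from 0 h on, at 2.73 to 3.63 in the Ikaros line and 7.47 to 8.44 in the control line. The other 4 calls at 2 h, Map3k14 (0.67), Irak1 (0.40), Ikbkg (-0.37) and Rnf31 (-0.28), were lost without replicate 1 (limma adjusted p = 0.153, 0.151, 0.489 and 0.306) and without replicate 2 (0.279, 0.321, 0.294 and 0.292). At 24 h 13 were higher and 5 lower, with a median of 0.26. Traf6 (1.86) and Birc3 (1.5), ubiquitin ligases of the classical pathway, were higher, and Traf3 (-1.90), which restrains the alternative pathway, was lower, as was Prkcb (-4.35). Irak2, a kinase below Toll-like receptors, was at 1.35 (0.0319), and at 1.18 (0.223) and 0.87 (0.321) without replicate 1 or replicate 2.

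Of the other inhibitors of NF-kB, all 15 had a row. At 2 h 2 were higher and 1 lower, with a median of 0.12. Pdlim2, which promotes removal of nuclear p65, was at 0.54, Tnip1, a partner of A20, at 0.38, and Nfkbid, a nuclear IkB protein, at -0.65. The call of Tnip1 was lost without replicate 1 (0.35, limma adjusted p = 0.136). That of Nfkbid was lost without replicate 1 (-0.59, 0.0567) and without replicate 2 (-0.75, 0.107). Both were also lost when the compared groups were fitted alone (limma adjusted p = 0.138 for Tnip1 and 0.169 for Nfkbid). At 24 h 8 were higher and 4 lower, with a median of 0.57. Traf3ip3 (1.57), Rnf11 (1.44) and Pdlim2 (1.15) were higher, and Nlrc3 (-2.84) and Nfkbid (-1.09) were lower. Nfkbid thus lay below control at the time when Nfkbia, Nfkbie and Nfkbiz lay above it.

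Of 33 textbook NF-kB target genes, 15 had a row, and they did not share the direction of the 9 genes at 24 h. At 2 h 2 were higher and 5 lower, with a median of -0.37. Those lower than control were Ier3 (-2.05), Pim1 (-1.99), Bcl2l1 (-1.95), Cd44 (-1.43) and Plk3 (-0.87), genes of survival, stress response and adhesion. Of the 15 targets 4 were already called lower at 0 h, among them Pim1 (-1.62), Cd44 (-0.63) and Bcl2l1 (-0.45). The change of the difference from 0 h to 2 h was called for Ier3 (-1.57) and Bcl2l1 (-1.50), and not for Cd44 (-0.80, limma adjusted p = 0.0522), Pim1 (-0.37, 0.797) or Plk3 (-0.29, 0.790). The 2 h difference of Plk3 was not called when replicate 1 (-0.89, limma adjusted p = 0.120) or replicate 2 (-0.78) was left out. At 24 h 6 were higher and 7 lower, with a median of 0.04. The cytokine genes Tnf (-4.19) and Lta (-3.72), with Plk3 (-3.81) and Ier3 (-3.02), were lower, while the chemokine gene Ccl3 (3.95) was higher. The 9 subunit and feedback genes had a median of 0.86 at the same time. The difference between the lists was not tested.

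**Figure D4:**
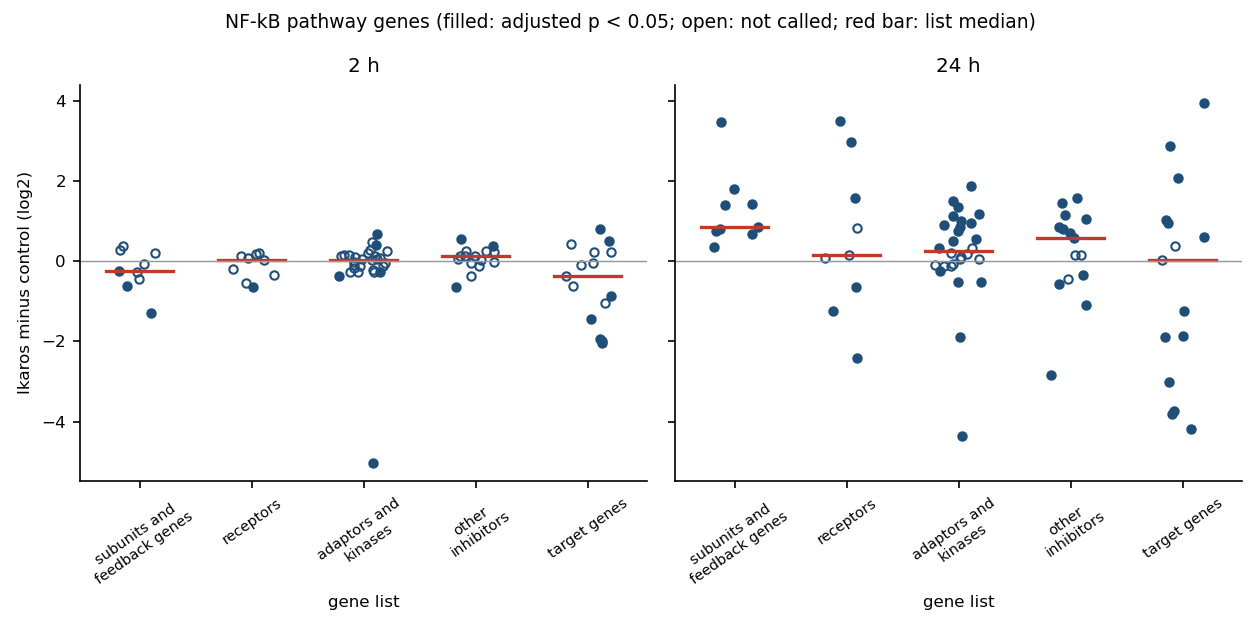
Difference in log2 expression, Ikaros minus control (vertical axis), of the genes of 5 NF-kB lists (horizontal axis) at 2 h and 24 h. Each point is a gene, filled where its limma adjusted p was under 0.05, and red bars are list medians. At 24 h all 9 subunit and feedback genes lie above 0, and the target genes spread from -4.19 to 3.95.

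Markers of other cells were looked at beside these results. Of all genes 9.18% were called higher and 9.88% lower at 2 h, and 31.0% higher and 31.9% lower at 24 h. The 2 T and NK markers with a row, Lck and Klrb1c, and the 3 erythroid and megakaryocyte markers were not called at 2 h or 24 h. Their summed levels (added before the log2) were 10.27 to 11.78 and 7.98 to 9.39 in the Ikaros line. In the control line these were 10.86 to 11.27 and 8.61 to 9.28. At other times 1 T and NK marker was called higher at 0 h (4.61% of all genes) and 1 lower at 12 h (22.8%). At 18 h 1 was called in each direction (29.0% of all genes higher and 29.2% lower). For 1 of these 2 markers the change of the difference from 0 h was called, downward, at 2 h and at 24 h. Of all genes 3.10% and 48.4% were called for these changes in either direction. Of the erythroid and megakaryocyte markers 1 was called lower at 6 h (19.2% of all genes). Of the myeloid markers, Itgam (4.24 at 24 h) and Lyz2 (2.66 at 2 h and -2.94 at 24 h) were called, and Lyz2 was already 2.94 higher at 0 h. Averaged over all 36 libraries both stood low, at the 5.8th and 7.6th percentiles of gene means. Their highest single libraries reached 9.99 and 9.86, beside all-library means of 9.73 for Tnfaip3 and 9.70 for Nfkbiz. The sum of both markers was 7.82 to 10.03 in the Ikaros line and 6.01 to 8.74 in the control line. Of the 10 B lineage markers, 1 was higher and 3 were lower at 2 h, Ebf1 at 0.51 and Igll1 (-1.38), Vpreb1 (-0.82) and Cd79a (-0.41), of which Vpreb1 and Ebf1 were not called without replicate 1 (limma adjusted p = 0.472 and 0.182) or replicate 2 (0.0600 and 0.288), and Cd79a not without replicate 2 (0.185) or replicate 3 (0.0874). At 24 h 7 were higher and 2 lower. Rag1 (5.19), Blnk (4.14) and Cd79b (2.29) were higher and the surrogate light chain genes Igll1 (-3.96) and Vpreb1 (-3.42) lower. The change of the difference from 0 h was called for 2 of the 10 at 2 h (3.10% of all genes) and for 9 at 24 h (48.4%). Cd79a was already at -0.47 at 0 h. The part of these shifts in the results above was not tested.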

How the data were processed

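mRNA-seq was available for 36 libraries of the B3 line, 3 in each of 12 groups of line and time. The authors trimmed reads, mapped them with TopHat2 to mm10, kept unique best hits and counted genes with HTSeq (versions and strand setting are not given in the sources used here). They corrected the values for GC content and length with cqn and for technical batch with ComBat, and added a constant. The deposited values are on a log2 scale, as cqn builds them, since the table names no base. Correction for batch before deposition can narrow the spread between libraries, and the shift of the scale leaves differences as they were. No counts were used, so depth is unknown and the precision rests on the 3 libraries.

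Groups came from the GEO labels. limma 3.58.1 in R 4.3.3 fitted 12 group means to all 36 libraries, with 16 two-sided contrasts, Benjamini-Hochberg adjustment over 12762 genes and calls at adjusted p under 0.05. On simulated data with 200 changed genes of 12762 at 24 h, 159 were recovered and 8 unchanged genes were called. The 8 alternatives were a replicate block (culture batch), a filter at the 25th percentile of gene means (9571 genes), quantile normalization, eBayes with trend and robust settings, the compared groups alone, and leaving out replicate 1, 2 or 3. The labels give a batch number, which pairs the lines. The study's methods describe batches as repeats of the time course, with the 0 h cells obtained separately. A number shared by 0 h and later times may therefore not mean 1 culture occasion, though the replicate block treats it so. Deviations from group means of same-batch libraries of both lines had a median r of 0.1274 over 18 pairs (-0.062 to 0.5075, with 12 over 0.1). All members were named. Of each pathway or marker list the called genes with the largest difference at 2 h and 24 h were named, up to 5, and for likeness the genes with the highest r over group means. The members and lists were chosen with earlier results of these data known. Promoter windows came from RefSeq on GRCm38.p6 and gene positions from GENCODE M21.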

Additional observations from a re-analysis of the deposited data

Results flagged for a closer look

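The difference between the lines itself changed over time in 27 tests of an interaction term (limma, adjusted p under 0.05 over all 12762 genes, in log2 units). These values are listed because the lines moved differently, and many other genes in the table did so too. Relative to 0 h, 22.2% of the 9 passed at 2 h, beside 3.10% of the whole table in either direction. The 6 h shares were 22.2% and 15.9%, and those of 12 h 55.6% and 29.7%. By 18 h they were close, with 44.4% and 43.0%, followed by 66.7% and 48.4% for 24 h. Between 2 h and 24 h they were 88.9% and 47.3%. Whether the 9 exceeded the whole table was not tested. Relative to 0 h, Tnfaip3 changed by -1.45, -1.83 and -1.90 at 2, 6 and 12 h, and Nfkb2 by -0.70, -0.81 and -0.87 at the same times. Nfkb2 had turned to 0.70 at 24 h. Rel changed by 2.27, 3.58 and 3.17 at 12, 18 and 24 h, and Rela by 0.42, 0.54 and 0.62. Nfkbia changed by 0.76, 1.24 and 2.22 over those times, from a start below control at 0 h. Nfkb1 changed by 0.45 at 18 h and 0.31 at 24 h, and Nfkbie by 1.55 at 24 h.

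From 2 h to 24 h the difference changed by 3.27 for Rel, 2.26 for Nfkbie, 2.16 for Tnfaip3, 1.67 for Nfkbia, 1.40 for Nfkb2, 1.07 for Nfkbiz, 0.73 for Rela and 0.61 for Nfkb1. Of these, Nfkbiz was not called without replicate 2 (0.90, adjusted p = 0.223). Relative to 0 h, the 2 h change of Tnfaip3 was not called without replicate 1 (-1.11, 0.675) or replicate 2 (-1.70, 0.0823), and that of Nfkb2 without any 1 replicate (0.214, 0.412 and 0.0724). The 24 h change of Nfkb1 was likewise not called without any 1 replicate (0.0910, 0.252 and 0.175).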

How the results depend on the processing

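Changes of call were counted over 95 of the 144 member results. Outside the line differences at each time, only results called as designed were counted. Of the 95, the low-value filter changed the call of 0, and the replicate block and eBayes with trend and robust settings of 1 each. Quantile normalization changed 2 and the compared groups alone 11. With the replicate block, Tnfaip3 at 18 h kept -0.62 but lost its call (adjusted p = 0.0577), and no other call among the 95 changed. The compared groups alone called 1 gene at 0 h, 2 at 6 h and 2 from 0 h to 2 h in the Ikaros line, in place of 2, 5 and 5. Leaving out each replicate in turn gave 0 to 2 calls at 0 h, 1 to 3 at 2 h, 3 to 6 at 6 h and 3 to 5 at 12 h. For the change of the difference from 0 h it gave 0 to 2 at 2 h, 1 to 2 at 6 h, 2 to 4 at 12 h and 2 to 4 at 18 h, and for the Ikaros line from 0 h to 2 h it gave 2 to 6. Such fits hold 2 libraries a group. Directions turned only among uncalled differences when a replicate was left out: Nfkb1 ran from -0.03 to 0.10 at 0 h, -0.11 to 0.10 at 6 h and -0.03 to 0.14 at 12 h, Nfkb2 from -0.13 to 0.07 at 18 h, Rel from -0.24 to 0.49 at 2 h and Tnfaip3 from -0.01 to 0.28 at 0 h. The cause was not tested. At 24 h 7 to 9 of the 9 genes were called in every alternative. Over all alternatives the change of the difference from 0 h was called for 2 to 5 genes at 18 h and for 5 to 8 at 24 h. As designed these counts were 4 and 6. Over all genes, the Ikaros line from 0 h to 2 h gave 2444 calls, and 3720 with the replicate block and 758 with the compared groups alone. Other counts over all genes that moved by over 1.5 times did so with fewer libraries or fewer genes in the fit, or in the control line, where 58 calls from 2 h to 24 h became 117 with the block.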
